A study of Mus musculus with 3 samples.

Results

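The hnRNP family was described from 10 genes, Hnrnpa1, Hnrnpa2b1, Hnrnpc, Hnrnpd, Hnrnph1, Hnrnpk, Hnrnpl, Hnrnpm, Hnrnpr and Hnrnpu, chosen by symbol and found in every table, of 55536 genes in all. They have 142 of the 141767 transcripts listed in the second of the 2 transcript quantifications. The libraries were total RNA sequencing of the chromatin fraction of bone marrow-derived macrophages, primary cells of mouse strain C57BL/6J, made after depletion of ribosomal RNA. There was 1 group of 3 libraries: the cells had been given 100 ng/ml Lipid A for 12 h, kept 12 h after it was washed out, and given 100 ng/ml Lipid A again for 20 min before the chromatin RNA was taken. Lipid A, the membrane anchor of bacterial lipopolysaccharide, is sensed by the receptor TLR4. No mutant, transgene or sorted gate is named in the labels, the sex and age of the mice were not recorded, and libraries of untreated cells were not analysed here. Replicates 1, 2 and 3 were made from 1 µg, 250 ng and 500 ng of RNA and carry the same donor entry, so the spread between them may in part be technical. With 1 group, every value below is a description of these 3 libraries.

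The heterogeneous nuclear ribonucleoproteins (hnRNPs) are abundant nuclear proteins that bind RNA while it is being transcribed and act in splicing, RNA stability, export and chromatin organisation. Many splicing regulators, hnRNPs among them, limit their own production: the protein acts on its own pre-mRNA and favours a form that keeps an intron, or one with a premature stop codon that is destroyed by nonsense-mediated decay (NMD). RNA bound to chromatin includes nascent and unfinished transcripts, in which introns are often still present. In the annotation each transcript has a class. Beside protein_coding, 3 classes are described here: retained_intron, nonsense_mediated_decay and processed_transcript (no open reading frame assigned). A class name alone does not show that a transcript is a self-limiting form.

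Total expected counts, the authors' estimates of reads per gene, were 13953780, 24222661 and 16571228 in replicates 1, 2 and 3, and the 10 genes held 0.349, 0.349 and 0.328% of the counts on genes. The median TPM (the authors' level scaled for transcript length and library size) of genes with a protein_coding transcript and a mean of at least 1 TPM was 11.7, 9.29 and 11.5. Replicate 2 was thus lower on the TPM scale for genes at large, and it was the lowest library for 9 of the 10 members on that scale. The 8 macrophage markers were each at 1 TPM or more in every library and summed to 833 to 992 TPM. The T cell, B cell, neutrophil and erythroid lists summed to at most 0.36 TPM in any library, with Ly6g, S100a8 and Hbb-bs listed at 0, and the stromal list summed to 1.34 to 2.25 TPM.

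All 10 members were at 1 TPM or more in every library, against 45.4% of the 21901 genes with a protein_coding transcript. For 6 of the 10 the level was 100 TPM or more in every library, against 1.75% of those genes. The median member stood at 233 TPM, and the median gene with a mean of at least 1 TPM at 10.9 TPM. In bulk RNA a level per cell and the number of cells that carry it cannot be told apart.

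Hnrnpa2b1, on the minus strand at chr6:51460932-51469894 of mm10, encodes a core protein of hnRNP particles that has also been described as a reader of m6A-marked RNA. It had 1000, 959 and 1018 TPM in replicates 1, 2 and 3, a mean of 992 ± 30.3 (SD, n = 3). It was the highest member in each library, and its range did not touch that of the next gene.

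Over the next 4 genes the ranges of neighbours overlapped. Hnrnpu had rank 2 in each of the 3 libraries, while Hnrnpk, Hnrnph1 and Hnrnpm changed places below it. Hnrnpu (chr1:178321108-178337797, minus strand), the scaffold attachment protein that binds chromatin and Xist RNA, had 325, 249 and 299 TPM (291 ± 38.6). Hnrnpk (chr13:58391142-58403343, minus strand), a poly(C)-binding protein with KH domains, had 320, 232 and 255 TPM (269 ± 45.9). These genes were high in replicate 1 and low in replicate 2. Hnrnph1 (chr11:50376990-50386528, plus strand), which binds G-rich runs near splice sites, had 295, 209 and 288 TPM (264 ± 47.5). Hnrnpm (chr17:33646233-33686860, minus strand), a splicing regulator that binds GU-rich RNA, had 282, 242 and 263 TPM (262 ± 20.1).

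Hnrnpl had rank 6 in each library, and its range overlapped that of Hnrnph1 but not that of Hnrnpm. It is at chr7:28808541-28822266 on the plus strand and encodes a protein that binds CA repeats and sets the splicing of Ptprc in lymphocytes. Its levels were 197, 200 and 216 TPM (204 ± 9.90), lowest in replicate 1, unlike the other members.

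A lower group of 3 genes overlapped one another. Hnrnpa1 (chr15:103240432-103246692, plus strand), which opposes SR proteins in the choice of splice sites, had 88.3, 79.5 and 85.0 TPM (84.3 ± 4.41). Hnrnpd (chr5:99955935-99978938, minus strand), also called AUF1, binds AU-rich elements and sets the stability of cytokine mRNAs, and it had 94.0, 51.3 and 88.7 TPM (78.0 ± 23.3). Hnrnpc (chr14:52073377-52104028, minus strand), whose tetramers bind runs of U in nascent RNA, had 87.8, 42.0 and 73.7 TPM (67.8 ± 23.4). In both Hnrnpd and Hnrnpc, replicate 2 stood apart from the other libraries.

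Hnrnpr (chr4:136310942-136359447, plus strand), a relative of Syncrip, was the lowest member with 21.7, 13.3 and 20.2 TPM (18.4 ± 4.45), below the range of Hnrnpc. In the second quantification Hnrnpa2b1 was again the highest (798 ± 16.4 TPM) and Hnrnpr the lowest (24.2 ± 3.75 TPM). Hnrnpm had rank 3 there with 334 ± 35.8 TPM, and Hnrnpa1 rank 9 with 74.2 ± 3.02 TPM.

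Of 18 other hnRNP genes and relatives, 3 reached 100 TPM in every library, and their median was 45.5 TPM. Hnrnpa3 (207 ± 51.0 TPM) and Hnrnpdl (162 ± 14.7 TPM) were among these 3, and the lowest of the 18 was Hnrnpa0 (2.76 ± 0.847 TPM). SR splicing factors, which often act against hnRNPs, had a median of 88.5 TPM over 12 genes, and the CLK kinases that phosphorylate them had 76.5 TPM over 4 genes.

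Much of the level of several members was not on protein_coding transcripts. Hnrnph1 had 8.22, 11.1 and 9.17 TPM on its protein_coding transcripts in replicates 1, 2 and 3, which is 3.75 ± 1.34% of its TPM. Hnrnpa1 had 12.9, 1.95 and 8.34 TPM on them (8.94 ± 6.11%), and Hnrnpl 20.6, 14.3 and 24.2 TPM (9.58 ± 2.18%). For Hnrnpa2b1 the same quantity was 328, 354 and 360 TPM, or 35.0 ± 2.06%. Hnrnpc was at the other end, with 74.3, 35.8 and 65.0 TPM, or 86.0 ± 1.91%. By protein_coding TPM alone Hnrnpa2b1 stayed first, Hnrnpc moved up to rank 5 and Hnrnpa1 to rank 10.

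**Figure D1:**
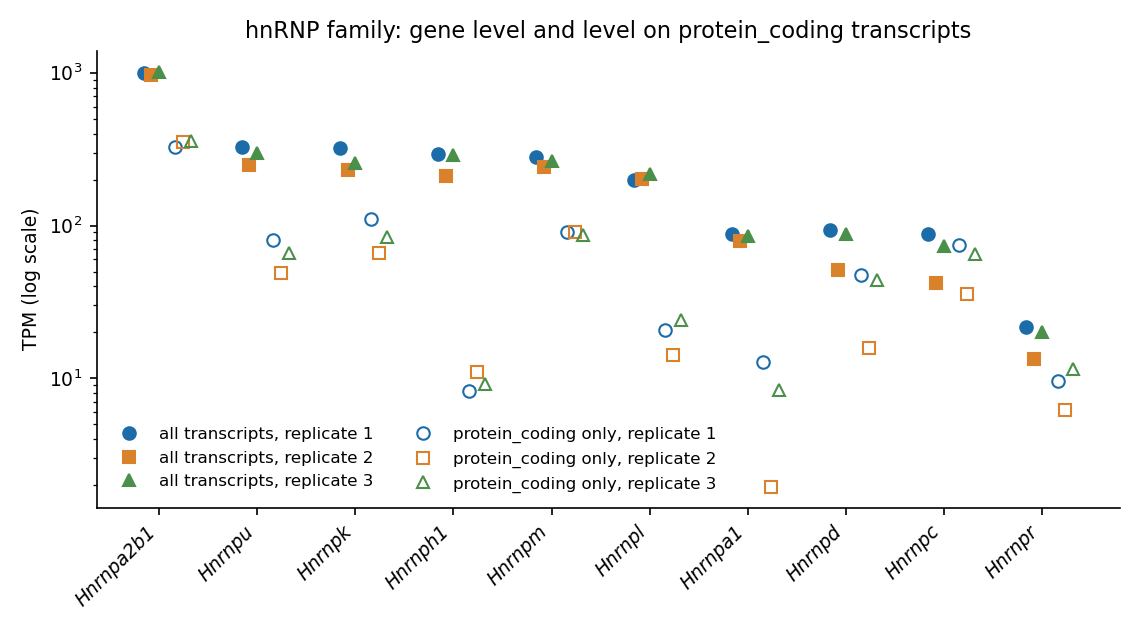
Level of each hnRNP gene in each library (TPM, log axis). Filled marks are all transcripts of a gene and open marks its protein_coding transcripts, with circles, squares and triangles for replicates 1, 2 and 3. Hnrnpa2b1 stands at 959 to 1018 TPM above the rest, and the gap between filled and open marks is wide for Hnrnph1 and Hnrnpa1 and narrow for Hnrnpc.

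Transcripts of the retained_intron class are annotated for 8 of the 10 members. Their share of the gene's TPM was above 50% in every library for 3 of the 8, Hnrnpl, Hnrnpk and Hnrnpa2b1, against 36.2% of 6632 genes of at least 1 TPM with such a transcript. The median share of the 8 was 48.0%, and the median over the 6632 genes was 47.0%. As a list the members thus stood at the level of other genes by TPM of the first quantification, the 1 scale on which all genes were taken. For 10 SR factors the median was 56.4%, for 4 CLK kinases 65.8% and for 11 of the other hnRNP genes 43.7%.

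Members differed widely among themselves in this share. Hnrnpl had 85.4, 87.1 and 84.8% of its TPM on retained_intron transcripts (85.8 ± 1.19%), and 96.0% of the 6632 genes had a lower share. Hnrnpk had 62.6, 65.7 and 63.0% (63.8 ± 1.70%), and Hnrnpa2b1 64.9, 60.6 and 62.9% (62.8 ± 2.15%). In these 3 genes the libraries stood close together. Hnrnpm followed with 60.2, 48.2 and 48.0% (52.1 ± 6.95%), where replicate 1 was apart.

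The share was lower in the other members. Hnrnpr had 48.1, 40.8 and 42.6% (43.8 ± 3.80%), and Hnrnpu 36.0, 34.9 and 31.5% (34.1 ± 2.34%). Hnrnpd had 18.2, 28.3 and 13.8% (20.1 ± 7.41%), high in replicate 2, where its level was lowest. Hnrnpc had 15.3, 14.9 and 11.8% (14.0 ± 1.91%), less than in most genes: 7.80% of the 6632 genes had a lower share.

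How these shares read depended on the unit, since TPM divides by transcript length and many retained_intron models are short. As a share of expected counts, which are not scaled for length, the median of the 8 members was 22.6%. Hnrnpl (75.7 ± 1.81% of counts) and Hnrnpa2b1 (57.6 ± 3.09%) stayed above 50%. Hnrnpm had 43.0 ± 2.22% of counts on this class and Hnrnpk 39.3 ± 1.41%. In the other 4 genes few counts lay on it: 5.87 ± 2.08% in Hnrnpr, 5.85 ± 0.621% in Hnrnpu, 3.36 ± 0.661% in Hnrnpc and 2.90 ± 0.758% in Hnrnpd. Hnrnpr shows the difference in length: its highest retained_intron model, Hnrnpr-208, has 473 bases, and its highest protein_coding model, Hnrnpr-207, has 21452.

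**Figure D2:**
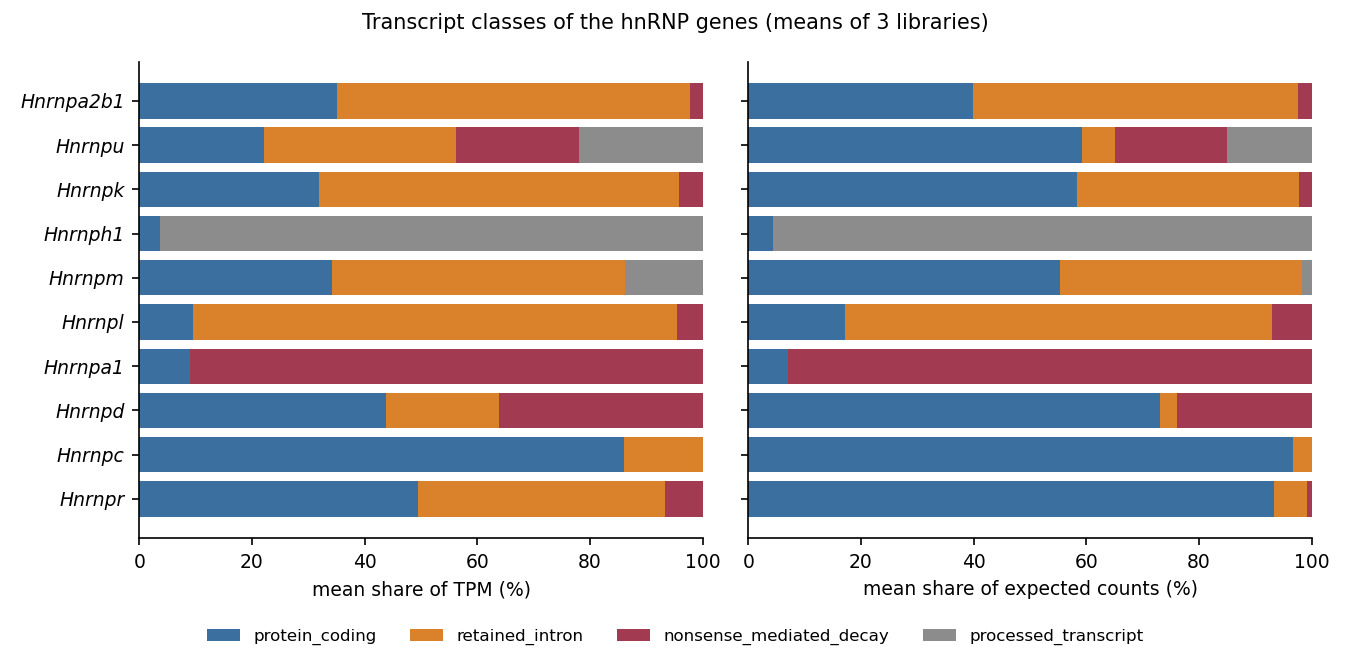
Mean share of each transcript class per hnRNP gene over 3 libraries, as a share of TPM (left) and of expected counts (right), both in percent; genes run from the highest to the lowest level. Hnrnpl and Hnrnpa2b1 keep a retained_intron share above 50% on both scales, while in Hnrnpr it is 43.8% of TPM and 5.87% of counts.

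Class names did not capture every form that keeps intron sequence, so a transcript outside the protein_coding class was also counted as intron-containing where at least 50 of its bases lay in introns of the protein_coding models of its gene. Hnrnph1 has no retained_intron transcript: 15 of its 18 models are processed_transcript, and they held 97.2, 94.7 and 96.8% of its TPM. By structure, 72.7, 73.3 and 73.0% of its TPM was intron-containing (73.0 ± 0.304%), with less spread than in any other member. Hnrnpl had 89.6, 92.9 and 88.8% by this measure (90.4 ± 2.18%). Over the 9 members with such a transcript the median was 56.2%, and 4 were above 50% in every library, against 40.5% of 7978 genes, whose median was 49.7%. Of those 4, Hnrnpa2b1 had 62.8% and Hnrnpk 61.5%, and each fell short of 50% under 1 other setting: Hnrnpa2b1 at 32.8% where at least 200 intron bases were asked for, and Hnrnpk at 38.6% by expected counts. Hnrnpu, not among the 4, had 37.9 ± 3.21%, but 59.2, 60.7 and 54.5% in the second quantification. By expected counts Hnrnpu had 6.86 ± 0.886%. In Hnrnpd, 36.1 of its 56.2% came from 4 models whose intron bases lie after the stop codon, all of the NMD class. Hnrnpa1 has no intron-containing model.

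In Hnrnpl the highest intron-containing models lay around introns 4 and 6, numbered along the protein_coding model Hnrnpl-209. Below them, Hnrnpl-203 keeps intron 8 (7.45 ± 0.511 TPM) and Hnrnpl-210 keeps intron 10 (3.99 ± 3.53 TPM). Each end of an intron was compared on its own. A model outside the protein_coding class counts as unspliced at an end where it reads over it. A model of any class counts as spliced there where one of its introns begins or ends at that base, whichever exon is at the other side. Intron 6 (chr7:28815353-28818460, 3108 bases) had its highest forms at each end. Hnrnpl-206, which runs from exon 6 into the intron for 1608 bases, had 50.1, 50.9 and 60.9 TPM (54.0 ± 6.04). Hnrnpl-205, which begins in the intron and runs out of it, had 40.2, 51.1 and 40.5 TPM (43.9 ± 6.23). Models spliced at these ends summed to 57.1, 57.8 and 66.4 TPM (60.4 ± 5.19) at either end, above the unspliced models of that end in each library. Of these, the models that join exons 6 and 7 directly had 28.2, 21.1 and 32.1 TPM (27.1 ± 5.54).

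Intron 4 of Hnrnpl (chr7:28814288-28815098, 811 bases) differed in sequence from the rest. It begins with AT and ends with AC, the ends of a rare kind of intron that is mostly removed by the minor spliceosome, where most introns begin with GT and end with AG. Member transcripts outside the protein_coding class read through 30 distinct 5′ ends and 28 distinct 3′ ends of introns. Among these, intron 4 of Hnrnpl gave the 1 AT and the 1 AC. It was also the 1 of the 30 whose intron began with ATATCC or GTATCC, searched on the transcribed strand at the first base of the intron. Hnrnpl-208, which reads into it, had 41.9, 38.4 and 46.4 TPM (42.2 ± 4.01), and Hnrnpl-207, which reads out of it, had 20.7, 25.1 and 25.8 TPM (23.9 ± 2.76). Models spliced at either end summed to 83.0 ± 9.23 TPM, more than the unspliced models in each library.

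The ends of both Hnrnpl introns as the transcripts carry them are shown because they are what the unspliced models read through. Each has 30 bases, 5′ to 3′ on the plus strand, with the first or last pair of intron bases in capitals, from the GENCODE M21 transcripts on mm10. They lie at chr7:28814278-28814307 and chr7:28815079-28815108 for intron 4, and at chr7:28815343-28815372 and chr7:28818441-28818470 for intron 6.
Hnrnpl intron 4 5′ end: ctatggtggaATatccttttctgggaaact
Hnrnpl intron 4 3′ end: gcttccttaagtcttctcACgtttgattct
Hnrnpl intron 6 5′ end: agtggacaagGTaatcctgatggctacttt
Hnrnpl intron 6 3′ end: actctgttttcaatctacAGgtgaccctgg

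Intron 6 also holds a cassette exon of 70 bases (chr7:28817335-28817404) that the protein_coding models skip. In human cells HNRNPL is known to promote inclusion of an exon of this gene that leads to NMD. Here 2 models carry the exon: Hnrnpl-213, of the NMD class, had 8.14, 11.5 and 8.51 TPM (9.40 ± 1.87), and Hnrnpl-207 had the 23.9 TPM given above. In Hnrnpl-213 the reading frame ends inside this exon, at a TGA (chr7:28817391-28817393) that lies 842 bases before the last exon junction. Those 30 bases, 27 of frame and the stop in capitals, are shown as the end of the shortened frame.
Hnrnpl-213 stop: tctttcagaactgtgctaactcactgtTGA

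**Figure D3:**
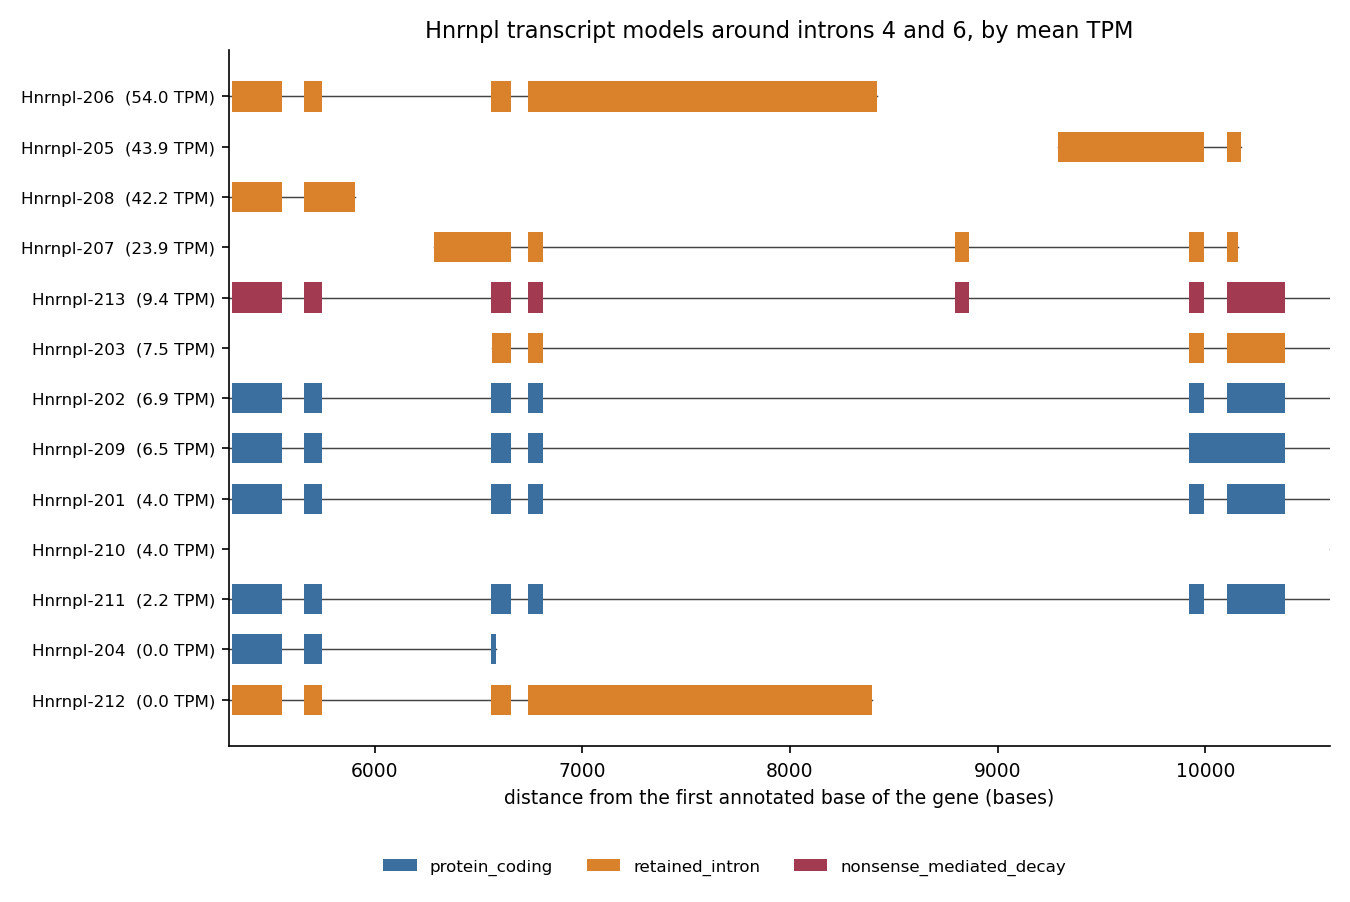
Exons (boxes) of the annotated Hnrnpl transcripts between introns 4 and 6, against distance from the first base of the gene, with rows ordered by mean TPM of 3 libraries and coloured by class. The highest models, Hnrnpl-206, Hnrnpl-205 and Hnrnpl-208, each end or begin inside an intron, and the 70-base exon appears in Hnrnpl-207 and Hnrnpl-213.

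In Hnrnpa2b1 the highest transcript of the whole family was a retained_intron form. Hnrnpa2b1-208, 766 bases long, had 301, 270 and 292 TPM (288 ± 15.8). It keeps intron 11 of the model Hnrnpa2b1-203 (chr6:51463255-51463410, 156 bases), which lies after the stop codon, in the 3′ untranslated region. At its 3′ end the spliced models summed to 142, 158 and 167 TPM (156 ± 12.6), less than the unspliced in each library. At its 5′ end they summed to 351, 377 and 377 TPM (368 ± 15.3), more than the unspliced in each library, since some models splice from there to another exon. Hnrnpa2b1-211, with 704 intron bases, also after the stop, had 208, 177 and 208 TPM (198 ± 17.8). Forms whose intron sequence lies mainly after the stop made up 50.9, 46.7 and 49.1% of the gene's TPM (48.9 ± 2.12%), and forms with it in the coding span 13.9 ± 0.0910%. In human cells, splicing in this 3′ untranslated region is part of a known self-limiting circuit of hnRNP A2/B1.

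Introns at the start of Hnrnpa2b1 were kept too. Hnrnpa2b1-213 keeps introns 1, 2 and 6 whole and had 87.8, 65.2 and 79.0 TPM (77.3 ± 11.4). The exon between introns 1 and 2 is skipped in most of the spliced TPM: models spliced at the 3′ end of intron 1 and the 5′ end of intron 2, which include it, summed to 39.3, 46.4 and 40.2 TPM (42.0 ± 3.86). Those spliced at the outer ends, 5′ of intron 1 and 3′ of intron 2, summed to 368 ± 15.3 TPM. The unspliced model thus lay above the spliced ones at the inner ends and below them at the outer ends in each library. Intron 6 was spliced at both ends in 379 ± 23.1 TPM, also above the unspliced model.

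Hnrnph1 showed a wide gap between unspliced and spliced ends. Models that read into intron 4 (chr11:50379965-50381458, 1494 bases, numbered along Hnrnph1-202) summed to 161, 119 and 153 TPM (144 ± 22.7), against 21.9, 18.4 and 25.4 TPM (21.9 ± 3.48) spliced at this 5′ end. Those that read out of it had 96.9, 65.5 and 84.3 TPM (82.2 ± 15.8), against 8.46, 12.9 and 11.5 TPM (11.0 ± 2.29) spliced at this 3′ end. At both ends the unspliced models were higher in every library. Intron 5 (939 bases) was alike, with 82.4 ± 15.9 TPM unspliced against 10.8 ± 2.35 TPM spliced at its 5′ end, and 82.2 ± 15.8 TPM unspliced against 21.5 ± 3.49 TPM spliced at its 3′ end. The long models Hnrnph1-204 (57.9 ± 15.1 TPM) and Hnrnph1-205 (24.4 ± 1.12 TPM) keep both introns. Intron 3 (197 bases) went the other way, with 63.4 ± 8.17 TPM unspliced and 103 ± 18.7 TPM spliced at both ends.

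The ends of Hnrnph1 intron 4 are given because the spliced TPM was low there. They lie at chr11:50379955-50379984 and chr11:50381439-50381468 of mm10, plus strand, with the terminal pair of intron bases in capitals.
Hnrnph1 intron 4 5′ end: ttcttctcagGTatgtagtcctgtttgttg
Hnrnph1 intron 4 3′ end: tatttgtccttgggttgaAGggttggaaat

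Hnrnpk has 34 annotated transcripts, the most of the family, and 13 are retained_intron. The highest, Hnrnpk-204, reads into intron 4 of Hnrnpk-224 and had 57.8, 44.7 and 51.7 TPM (51.4 ± 6.53), against 82.7 ± 10.7 TPM spliced at its 5′ end. The short introns 12 (207 bases) and 13 (78 bases) were kept in 50.9 ± 4.01 and 43.1 ± 3.13 TPM. Intron 12 was spliced at both ends in 39.1 ± 6.02 TPM, less than kept in each library, and intron 13 in 70.6 ± 13.6 TPM, more than kept in each.

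In Hnrnpm the unspliced models end within introns. Hnrnpm-208, which reads into intron 5 of Hnrnpm-206, had 63.6, 42.5 and 46.8 TPM (50.9 ± 11.1). Hnrnpm-203, which reads 2322 bases into introns, had 36.8, 36.6 and 37.1 TPM (36.8 ± 0.250), nearly the same in all 3 libraries. Hnrnpm-213, which reads out of intron 14, had 58.2, 27.5 and 33.0 TPM (39.6 ± 16.4), and replicate 1 was apart. The models spliced at the same ends had 64.3 ± 0.820 TPM for intron 5, 151 ± 9.14 TPM for intron 2 and 87.9 ± 2.48 TPM for intron 14.

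Hnrnpu has 3 intron-containing models and Hnrnpr has 2. Hnrnpu-202, with 673 bases, reads out of intron 1 and into intron 3 and had 91.1, 68.1 and 76.5 TPM (78.6 ± 11.6), against 125 ± 16.6 TPM spliced at each of those ends. Hnrnpr-208 reads out of intron 8 and had 9.01, 4.91 and 7.29 TPM (7.07 ± 2.06), close to the 7.46 ± 1.77 TPM spliced there. Hnrnpd-206, which reads out of intron 3, had 14.6 ± 2.45 TPM, against 63.0 ± 22.9 TPM spliced there. Hnrnpc-208, which reads into intron 3, had 6.03 ± 0.806 TPM, against 45.5 ± 11.1 TPM spliced there.

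Over the family, 39 introns of the models used for numbering had at least 1 unspliced end in a model outside the protein_coding class. Introns absent from the numbered models, and ends read through only by protein_coding models, were left out. For example, the stop of protein_coding Hnrnpk-210 (35.6 ± 13.5 TPM) lies within intron 5 of Hnrnpk-224, whose 5′ end was not counted. Of the 30 5′ ends read through, 4 had more unspliced than spliced TPM in every library: introns 4 and 5 of Hnrnph1, 12 of Hnrnpk and 2 of Hnrnpa2b1. Of the 28 3′ ends, 5 did: the same introns of Hnrnph1 and Hnrnpk, and introns 1 and 11 of Hnrnpa2b1. The introns above at both ends were thus 4 and 5 of Hnrnph1 and 12 of Hnrnpk, and the second quantification gave the same ends. No end in Hnrnpc, Hnrnpd, Hnrnpl, Hnrnpm, Hnrnpr or Hnrnpu met this. Intron ends of all genes were not counted in this way, so whether these counts are high or low cannot be said.

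**Figure D4:**
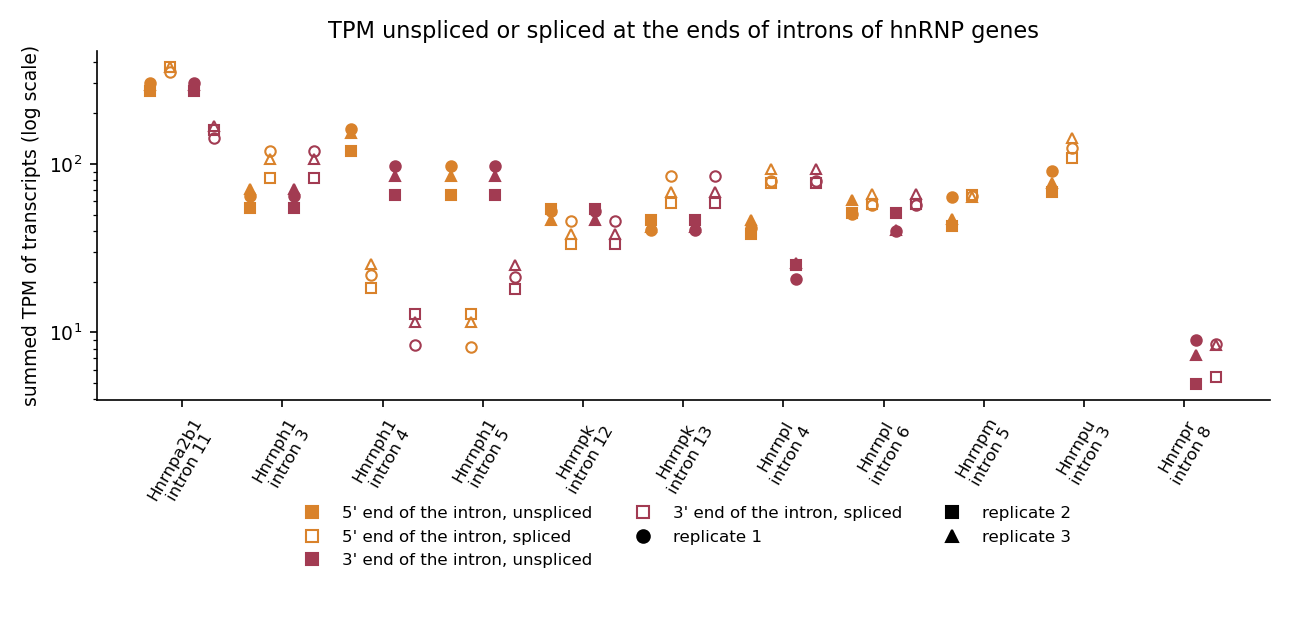
Summed TPM (log axis) of the transcripts unspliced (filled marks) and spliced (open marks) at the 5′ end (orange) and the 3′ end (dark red) of 11 introns of hnRNP genes. Ends are shown where models outside the protein_coding class read over them, and only those models count as unspliced. Circles, squares and triangles are replicates 1, 2 and 3. Unspliced marks lie above spliced ones at both ends of Hnrnph1 introns 4 and 5 and Hnrnpk intron 12, and at the 3′ end of Hnrnpa2b1 intron 11.

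Transcripts of the NMD class are annotated for 7 members. Their median share of TPM was 6.78%, against 4.83% over 3250 genes with such transcripts, and without replicate 2 it was 4.04%, against 4.48% over those genes. In 1 of the 7, Hnrnpa1, the share was above 50% in every library, against 2.58% of those genes. Hnrnpa1 had 85.4, 97.5 and 90.2% of its TPM on this class (91.1 ± 6.11%), and 99.3% of the 3250 genes had a lower share. Hnrnpd had 31.3, 40.8 and 36.2% (36.1 ± 4.74%), and Hnrnpu 13.9, 25.2 and 26.4% (21.8 ± 6.90%), lowest in replicate 1. The other 4 were low: Hnrnpr 6.78 ± 6.38%, at 0 in replicate 3, Hnrnpl 4.61 ± 0.999%, Hnrnpk 4.27 ± 1.33% and Hnrnpa2b1 2.18 ± 0.388%. These shares follow the class name. The protein_coding model Hnrnpa2b1-202 (150 ± 6.79 TPM) has the same stop as both NMD models of its gene. In each of these models the last exon junction lies 157 bases after that stop. By expected counts Hnrnpa1 stood at 92.9 ± 4.70% and Hnrnpd at 24.0 ± 0.936%. In the second quantification Hnrnpa1 stood at 83.5 ± 5.10% of TPM and Hnrnpd at 28.7 ± 2.13%.

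The NMD models of Hnrnpa1 carry the normal stop codon and differ after it. Hnrnpa1-203 had 36.0, 45.8 and 41.2 TPM (41.0 ± 4.89), and Hnrnpa1-204 had 39.4, 31.8 and 35.5 TPM (35.6 ± 3.79), with overlapping ranges. The highest protein_coding model, Hnrnpa1-202, had 12.6, 1.80 and 8.13 TPM (7.50 ± 5.42), below both in each library. In both NMD models the frame ends at the TAA of the protein_coding models (chr15:103244012-103244014), and an exon of 76 bases follows further downstream (chr15:103246346-103246421), directly after the stop exon in Hnrnpa1-203 and after 1 longer exon in Hnrnpa1-204. The last junction lies 90 bases after the stop in Hnrnpa1-203 and 1801 bases after it in Hnrnpa1-204, against 14 bases in Hnrnpa1-202. These models are therefore forms with added 3′ exons, not forms with a shortened frame, and the shared end of the frame, 27 bases and the stop in capitals, is given once.
Hnrnpa1 stop: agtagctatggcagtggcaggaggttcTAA

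**Figure D5:**
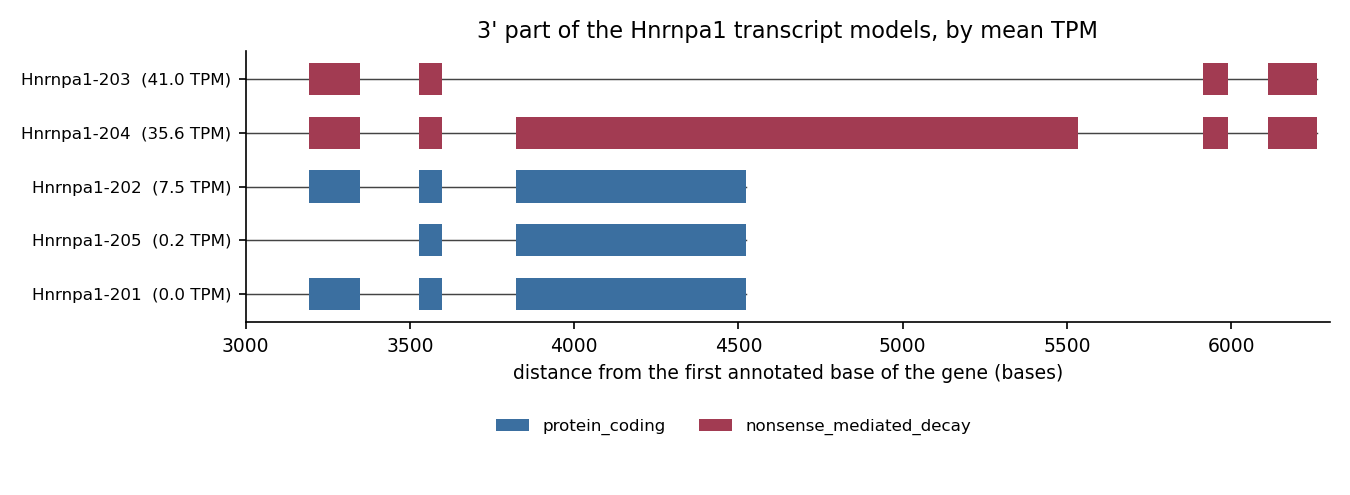
Exons (boxes) of the 5 annotated Hnrnpa1 transcripts in the 3′ part of the gene, against distance from its first base, with rows ordered by mean TPM of 3 libraries and coloured by class. Hnrnpa1-203 (41.0 TPM) and Hnrnpa1-204 (35.6 TPM) run on to 2 further exons, and Hnrnpa1-202 (7.50 TPM) does not.

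Hnrnpd also had NMD models with the normal stop and an exon added after it. The added exon lies within an intron of the protein_coding models, while that of Hnrnpa1 lies beyond their last exon. Its highest transcript, Hnrnpd-208, had 19.4, 15.7 and 24.3 TPM (19.8 ± 4.33), shares the stop of the protein_coding models and carries an exon of 107 bases in intron 8 (chr5:99962098-99962204), which places the last junction 137 bases after the stop. The highest protein_coding model, Hnrnpd-210, had 28.5, 4.38 and 21.2 TPM (18.0 ± 12.4), and the models overlapped in range. The second quantification put the protein_coding model first in every library, with 44.8 ± 11.0 TPM for Hnrnpd-210 and 17.8 ± 1.88 TPM for Hnrnpd-208. Of 16 NMD models of the members with an annotated stop, 7 (43.8%) share it with a protein_coding model of their gene: both of Hnrnpa1, both of Hnrnpa2b1 and 3 of 4 of Hnrnpd. Over all genes the count was 505 of 7080 (7.13%).

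In Hnrnpk, Hnrnpl, Hnrnpr and Hnrnpu no NMD model shared that stop. Hnrnpu-206 had 43.1, 59.8 and 75.7 TPM (59.5 ± 16.3), close to the single protein_coding model Hnrnpu-201 with 80.7, 48.8 and 65.9 TPM (65.1 ± 16.0), and the order of these models changed between libraries. The frame of Hnrnpu-206 ends at a TAA at chr1:178325281-178325283, 183 bases before the last junction. On the minus strand this lies downstream of the stop of Hnrnpu-201 (chr1:178329354-178329356). Hnrnpu-206 also carries 2 exons, of 94 and 51 bases, that no protein_coding model has.

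For 6 members the highest transcript was of the retained_intron class, for 2 (Hnrnpa1 and Hnrnpd) NMD, for Hnrnph1 processed_transcript and for Hnrnpc protein_coding. In the second quantification the highest transcript was retained_intron for 5 members, and it was protein_coding for Hnrnpd and processed_transcript for Hnrnpu. The class of the highest transcript was not counted over all genes, so these counts describe the members only. Hnrnpc-210 had 32.7, 19.1 and 32.3 TPM (28.1 ± 7.75).

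Gene counts varied little between libraries. The spread was taken as the SD of log2 CPM, where CPM is a count per library size. It lay between 0.06 for Hnrnph1 and 0.22 for Hnrnpc, with a median of 0.12, against 0.20 over the 11632 genes that averaged 50 counts or more. The sets were not matched for count: the members averaged from 1619 (Hnrnpr) to 20874 (Hnrnpa2b1). With genes from 10 counts up, the median over all genes was 0.23. Without replicate 2 the median of the members was 0.049. The highest library was 1.09 to 1.31 times the lowest. By this measure 4 members were highest in replicate 1, 5 in replicate 2 and 1 in replicate 3, against 35.8%, 37.3% and 26.9% of those genes. The lowest library was replicate 1 for 3 members, replicate 2 for 4 and replicate 3 for 3, against 37.7%, 35.7% and 26.7% of those genes. On log2(TPM + 1) the median SD was 0.22 for the members and 0.24 for all genes, so the gap depends on the scale. Hnrnpc and Hnrnpd, with 0.55 and 0.48, varied most on that scale and were lowest in replicate 2.

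Pseudogene copies bear on some of these levels. Hnrnpa1 has 23 annotated processed pseudogenes with at least 80% identity over 50% of their length. In the first quantification they held 15.2, 17.0 and 20.3 TPM, or 17.2, 21.4 and 23.8% of the gene's own TPM. One of them, Gm10052, matches an Hnrnpa1 transcript at 100% identity over its whole length and had 6.70, 11.1 and 9.97 TPM, and 31.4, 32.7 and 23.5 TPM in the second quantification. Another, AC123659.1, matches at 100% identity over 99.4% of its length, with 0, 0 and 4.54 TPM, and 14.6, 14.9 and 11.8 TPM in the second quantification. Hnrnpa1 itself had 74.9, 70.9 and 76.8 TPM there, so the copies weighed more in it than in the first. Reads from these copies and from Hnrnpa1 cannot be told apart over those lengths. How they were assigned was not tested, and the class shares of Hnrnpa1 may depend on it. For Hnrnpr the processed copies held 27.3, 41.6 and 28.5% of the gene's TPM in the first quantification, but from 11 to 18 counts. Gm10042, an Hnrnpr pseudogene not classed as processed, was at 0 TPM there. In the second quantification it had 28.2, 12.0 and 18.9 TPM, against 26.3, 19.8 and 26.4 TPM for Hnrnpr. In the other 8 members processed copies held at most 2.01% in the first quantification, and Hnrnpm and Hnrnpu have none.

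Genes with counts of their own overlap 5 members. Rmi1 shares 1096 bases with Hnrnpk on the other strand and had 16.3, 12.6 and 18.3 TPM, and March2 shares 1169 bases with Hnrnpm on the same strand and had 17.5, 12.8 and 16.0 TPM. The antisense genes Gm44702 at Hnrnpl and Gm17092 at Hnrnpd were at or below 4.31 TPM, and Cox20 at Hnrnpu at or below 6.86 TPM. Whether reads were counted by strand is not given in the sources used here, so these levels may share reads.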

How the data were processed

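Values came from 3 tables per library: 1 for genes and 2 for transcripts, made by different quantifications. Per the file headers, the authors' deposited gene and first transcript tables hold expected counts (estimates that need not be whole), TPM and FPKM, and the second table holds estimated counts and TPM. TPM is scaled for effective transcript length. Genome mm10 and annotation M21 are named in the notes deposited with each library. Which programs made the tables is not given in the sources used here. Bounds deposited beside TPM were not used: their level is not stated, and 42 of 426 TPM values of member transcripts lay above the upper bound and 102 below the lower. Hnrnpa2b1-208 had 301, 270 and 292 TPM against upper bounds of 287, 268 and 280. No other samples' columns were present.

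The members, gene lists and measures were chosen with earlier results of these data known. The genes named are all 10 members with their highest transcript of each class, and the 3 highest and the lowest of the other hnRNP genes, of which 1 is not reported here; further transcripts and introns were named after their values were seen. Shares are the summed TPM of a class over the summed TPM of the gene's transcripts, per library, in genes of a mean of at least 1 TPM. Structures, coordinates and sequences came from the GENCODE M21 annotation and transcripts. Log2 CPM used expected counts rounded to whole numbers, the TMM method of edgeR 4.0.16 (factors of 1.03, 0.984 and 0.985) with prior count 2, and DESeq2 1.42.0 gave the alternative size factors. Entries that name no gene took 2.46, 0.484 and 0.327% of counts in replicates 1, 2 and 3 and stayed out of library sizes. Pseudogenes were matched with blastn 2.17.0+. Shares and log2 values were tested on simulated data. Means and SDs are over 3 libraries, and no test between groups was possible. Work used R 4.3.3, Python 3.11.15, pandas 2.3.3, numpy 2.4.6 and matplotlib 3.10.9.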

Additional observations from a re-analysis of the deposited data

How the results depend on the processing

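The median member level was 233 TPM and lay between 226 and 240 TPM when each replicate was left out in turn; the second quantification gave 235, FPKM 215, TPM rescaled over genes 234 and the level with pseudogenes added 233. The median retained-intron share of 48.0% became 41.1% in the second quantification, 22.6% by expected counts and 60.5% over protein_coding plus retained_intron transcripts alone, and lay between 44.9 and 49.7% with a replicate left out. The share over all genes was 45.8% with no TPM minimum, 49.0% at a minimum of 10 TPM and 48.1% in genes with 5 or more transcripts. The median NMD share of 6.78% became 33.0% over protein_coding plus NMD transcripts and lay between 4.04 and 10.2% with a replicate left out. The median intron-containing share of 56.2% became 38.6% by expected counts and 37.9% at a minimum of 200 intron bases, and lay between 54.1 and 59.5% with a replicate left out; this measure and shares from posterior mean TPM were chosen after seeing the data. The median SD of log2 CPM was 0.12, and 0.22 on log2(TPM + 1); with a replicate left out it lay between 0.049 (without replicate 2) and 0.13 (without replicate 3). Per gene, the retained-intron share moved by more than the SD between libraries in 8 of 8 members by expected counts and in 6 of 8 in the second quantification, and the TPM in 6 of 10 in the second quantification. No paired analysis was possible because there is 1 group. The causes of these shifts were not tested, beyond the scaling for length that separates TPM from counts. Transcript levels are estimates from reads shared between models, and short models rest on few counts.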
